A study of Bos taurus and Sus scrofa with 10 samples.

Results

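The MCM helicase and replication licensing genes are the 6 subunits of the MCM2-7 ring (MCM2, MCM3, MCM4, MCM5, MCM6 and MCM7) and 4 genes that load, restrain or activate it (CDC6, CDT1, GMNN and CDC45). They were chosen by symbol from 1 deposited expression table for cow (Bos taurus, 22845 rows) and 1 for pig (Sus scrofa, 21867 rows). Of the 10 symbols, 9 were found in each table and 8 in both. MCM4 in cow and MCM5 in pig were not analysed here, and no member symbol had a repeated row. Each species had 5 groups, namely oocytes, embryos of 2-4 cells and of 8-16 cells, morulae and blastocysts, with 1 RNA sequencing library of total RNA per group and 10 libraries in all. The labels give no treatment, breed, age or embryo source, and do not say how many oocytes or embryos made up a library. The series title speaks of DNA methylation in preimplantation embryos, imprinted genes and species differences, and does not name licensing. The comparisons below follow the members from stage to stage within each species.

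Before a chromosome can be copied, each origin of replication has to be licensed. The origin recognition complex and CDC6 sit on the DNA and, with CDT1, load the MCM2-7 ring as an inactive helicase. In S phase the ring joins CDC45 and the GINS complex to become the moving helicase, while geminin (GMNN) binds CDT1 and prevents a second round of loading. Early embryos run their first cell cycles largely on RNA and protein stored in the oocyte, and later on transcripts of their own genome.

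All levels are reads per 1000000 library reads (RPM) with no correction for gene length, so they follow 1 gene over the stages and cannot rank different genes. Library totals ran from 3002751 reads in the pig morula to 14182046 reads in the cow blastocyst, and 3 reads, the limit that a count of 0 allows, amounted to between 0.212 and 0.999 RPM. Intervals are 95% intervals from read counts and cover counting error only, since the libraries were amplified and the labels describe no molecular identifiers. A change is the difference of log2(RPM + 1), later minus earlier, which understates the change of low genes. Comparisons took genes with 1 RPM or more in either library, and a difference of 2 or more in size counted as changed. With 1 library per group, no difference has a replicate check and no test against replicate spread was possible. The 2 tables were scaled separately, so levels are compared within a species. In bulk libraries such as these, fewer cells of a type and less RNA per cell cannot be told apart.

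The libraries carried the markers of their labels with some gaps. The summed level of oocyte markers (10 in the cow table, 9 in the pig table) went from 6091 RPM in the cow oocyte to 0.282 RPM in the cow blastocyst, where 9 of 10 were at 0 reads. In pig it went from 7163 to 22.3 RPM, and 5 of 9 were at 0 reads in the blastocyst. The summed blastocyst markers of cow were at 41.2 RPM in the oocyte and 3536 RPM in the blastocyst. Those of pig were at 22.2 and 8514 RPM, although NANOG, SOX2 and SOX17 had 0 reads in the pig blastocyst. Cumulus cell markers (10 in cow, 7 in pig) summed to between 42.3 and 354 RPM in cow, highest in the oocyte and 2-4 cell libraries, and to between 24.6 and 65.1 RPM in pig. The share of reads from the mitochondrial genome was 4.40% in the cow oocyte and 30.2% in the cow blastocyst, and ran from 6.06% to 18.6% in pig.

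Among the licensing genes, 6 of 87 changes reached the threshold, and they came from 3 genes, while between 0.374% and 45.2% of all genes did so in a single comparison. CDC6 fell from oocyte to blastocyst in both species, and in cow it also fell at the single step from the 8-16 cell embryo to the morula. MCM5 fell in cow between the 2-4 cell and the 8-16 cell embryo and rose from morula to blastocyst, and MCM7 rose in cow at that last step. Between neighbouring stages, 4 of 36 changes reached the threshold in cow and 0 of 33 in pig. The share of all genes called at these steps was 0.374% to 27.2% in cow and 4.87% to 27.6% in pig. In cow, 7 of 9 members were highest in the 2-4 cell library and 7 of 9 were lowest in the morula library, the extreme stages of 26.2% and 14.1% of the 14078 cow genes at 1 RPM or more in a library (ties not counted). The next stage in order overlapped within counting error for 3 of the 7 highest (MCM2, CDT1 and CDC45) and 4 of the 7 lowest (MCM2, MCM5, CDC6 and CDT1). In pig the highest level was in the oocyte for 4 members, in the morula for 2 and in the blastocyst for 3. These were the highest stages of 18.5%, 24.5% and 32.6% of the 14050 pig genes counted in the same way. The next stage in order overlapped for 2 of the 4, 1 of the 2 and 1 of the 3. The lowest level in pig was spread over 4 stages.

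**Figure D1:**
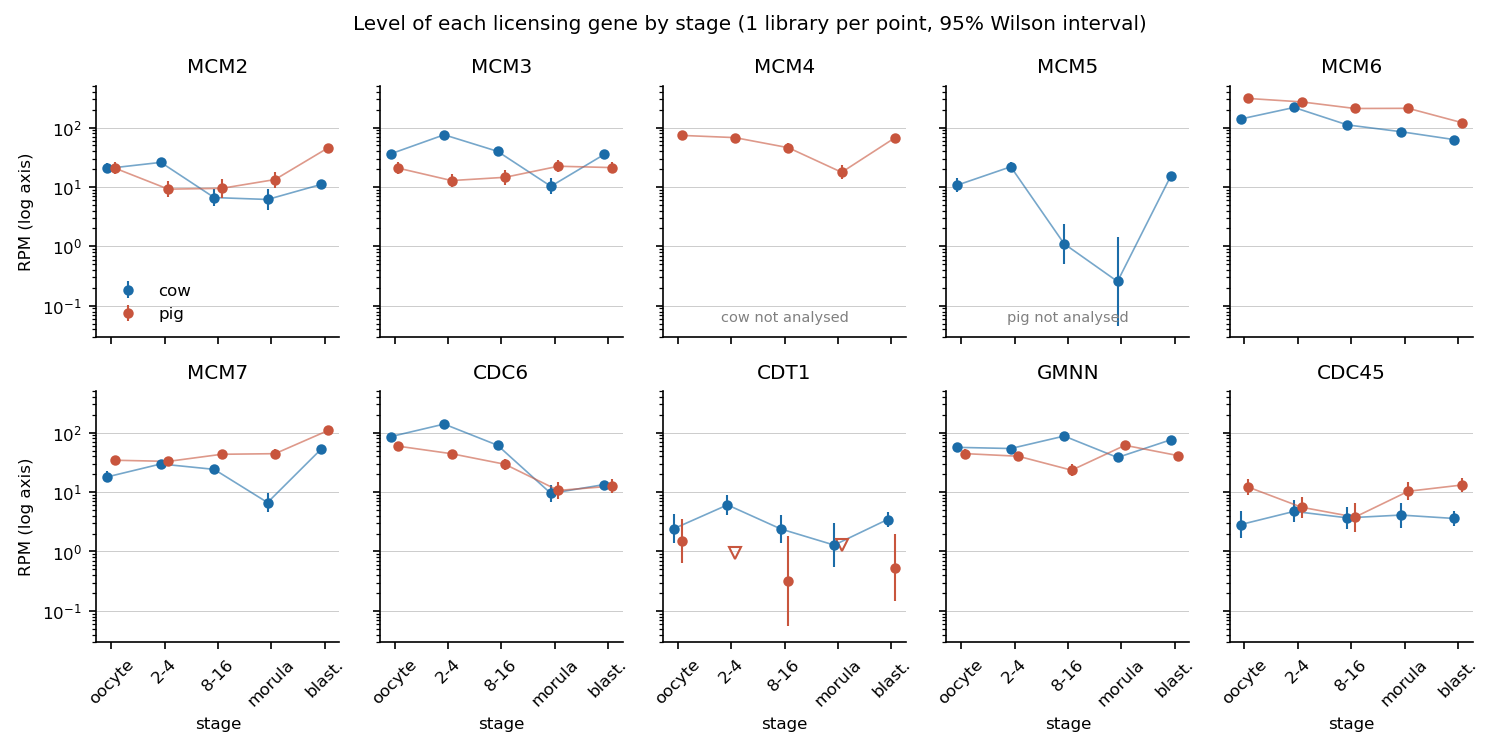
Level of each licensing gene in RPM (log axis) over the 5 stages in cow (blue) and pig (red), 1 library per point, with 95% Wilson intervals for counting error; open triangles mark the upper limit where a library had 0 reads. Cow MCM5 dips to 0.256 RPM in the morula, CDC6 ends low in both species, and MCM6 is at 62.6 RPM or more in every library.

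The ring subunits are described first, since the ring is the part of the machinery that opens the DNA. In cow, MCM2, MCM3, MCM5 and MCM7 were each lowest in the morula and higher again in the blastocyst. MCM6 was lower in the blastocyst than in the morula.

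MCM2 (cow chr22:60565325-60581052, minus strand; pig chr13:72629882-72650725, minus strand) is the subunit whose tail also binds histones. Its level in cow was 20.5 RPM in the oocyte, 25.9 in the 2-4 cell embryo, 6.63 in the 8-16 cell embryo, 6.15 in the morula and 11.0 in the blastocyst. In pig the same stages had 20.7, 9.18, 9.48, 13.3 and 45.8 RPM. The cow blastocyst was thus below the oocyte and the pig blastocyst above it. The oocyte level was 1.86 times the blastocyst level in cow (interval 1.44 to 2.41), a difference of -0.84. The blastocyst level was 2.21 times the oocyte level in pig (1.67 to 2.96), a difference of 1.11. Neither reached the threshold. The largest step of MCM2 in cow was from the 2-4 cell to the 8-16 cell embryo, at -1.82, and in pig from morula to blastocyst, at 1.71. In pig the 2-4 cell, 8-16 cell and morula levels were neighbours in order that overlapped within counting error.

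MCM3 (cow chr23:24438946-24456316, minus strand; pig chr7:46084662-46104430, minus strand) sits beside MCM5 and MCM7 in the ring. Cow levels were 36.1, 75.5, 39.8, 10.3 and 35.3 RPM from oocyte to blastocyst, so the 2-4 cell library was highest and the morula library lowest, 7.36 times apart. The morula was 3.88 times lower than the 8-16 cell embryo (2.76 to 5.58), and the blastocyst was 3.44 times higher than the morula (2.49 to 4.87). These differences of -1.86 and 1.69 stayed below the threshold. Pig levels were 20.7, 12.8, 14.5, 22.3 and 21.2 RPM, within 1.74 times of each other. In both species the oocyte and blastocyst levels of MCM3 overlapped within counting error.

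MCM4 (pig chr4:79672783-79687307, minus strand) was measured in pig only. Its levels were 73.7 RPM in the oocyte, 67.7 in the 2-4 cell embryo, 45.8 in the 8-16 cell embryo, 17.7 in the morula and 67.3 in the blastocyst. The morula stood apart as the low library, and the oocyte, 2-4 cell and blastocyst levels overlapped as neighbours in order. The blastocyst was 3.81 times higher than the morula (2.83 to 5.23), a difference of 1.87 that became 2.03, past the threshold, when libraries were scaled to a common median. MCM4 shares 657 of its 14525 bases with PRKDC, a DNA repair kinase gene on the opposite strand that went from 29.9 RPM in the oocyte to 10.7 in the morula and 9.65 in the blastocyst. How reads on overlapping genes were assigned is not given in the sources used here.

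MCM5 (cow chr5:73990687-74009154, plus strand) was measured in cow only, and it showed the widest swing of the set. Its level was 10.8 RPM in the oocyte (53 reads), 21.9 in the 2-4 cell embryo (97 reads), 1.10 in the 8-16 cell embryo (6 reads), 0.256 in the morula (1 read) and 15.4 in the blastocyst (218 reads). The 8-16 cell and morula libraries were both low and overlapped, and the other 3 libraries were all above them. From the 2-4 cell to the 8-16 cell embryo MCM5 fell by 3.44 on the log2(RPM + 1) scale, 19.8-fold lower with an interval of 8.77 to 55.2. From morula to blastocyst it rose by 3.70, and the ratio of 59.9 has an interval of 10.6 to 2378 because the morula level rests on 1 read. With a pseudocount of 5 RPM this last difference was 1.95, below the threshold. The blastocyst level was 1.43 times that of the oocyte (1.05 to 1.97).

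MCM6 (cow chr2:61821905-61852264, plus strand; pig chr15:15917042-15979389, plus strand) lies between MCM2 and MCM4 in the ring. In cow its levels were 139, 218, 111, 85.1 and 62.6 RPM from oocyte to blastocyst, and no neighbours in that order overlapped. In pig they were 309, 270, 209, 210 and 121 RPM. MCM6 was lowest in the blastocyst in both species, and no other member was. The oocyte level was 2.22 times the blastocyst level in cow (2.01 to 2.46) and 2.55 times in pig (2.28 to 2.85). The differences of -1.14 and -1.34 did not reach the threshold.

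MCM7 (cow chr25:36885892-36893315, plus strand; pig chr3:8001458-8026959, minus strand) was highest in the blastocyst in both species. Cow levels were 18.1, 29.7, 24.1, 6.67 and 52.4 RPM, with the morula lowest. From morula to blastocyst cow MCM7 rose 7.86-fold (5.32 to 12.1), a difference of 2.80. Pig levels were 34.3, 32.9, 43.3, 44.3 and 109 RPM, so the first 4 libraries lay close together and the blastocyst stood above them. The pig blastocyst was 2.47 times the morula (2.03 to 3.03) and 3.19 times the oocyte (2.59 to 3.95), with differences of 1.29 and 1.64 that did not reach the threshold. The introns of MCM7 host a microRNA cluster in mammals, which these gene counts do not report on. The pig gene also overlaps 3 genes on the opposite strand: COPS6, AP4M1 and CNPY4. COPS6, a subunit gene of the COP9 signalosome, went from 2.66 RPM in the pig morula to 20.6 RPM in the blastocyst. AP4M1, an adaptor protein gene that shares 7183 of the 25502 bases of MCM7, went from 2.33 to 15.6 RPM. Both moved in the direction of MCM7, and their part in its pig counts was not tested.

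The balance of MCM7 to MCM6 reads was higher in the blastocyst than in the oocyte in both species. The ratio of MCM7 to MCM6 reads in the cow blastocyst was 6.45 times that in the cow oocyte (5.07 to 8.21), and in pig it was 8.11 times (6.42 to 10.2). This comparison does not depend on how a library is scaled, because both counts come from the same library. The ratios of the other subunits to MCM6 were also above their oocyte values in the blastocyst. All these ratios share the MCM6 counts, and MCM6 itself was lower in the blastocyst in both species. By level alone, MCM3 in both species and pig MCM4 overlapped between oocyte and blastocyst, and cow MCM2 was lower. In cow the ratio to MCM6 at the blastocyst, relative to the oocyte, was 1.19 times for MCM2 (0.911 to 1.56), 2.17 times for MCM3 and 3.18 times for MCM5. In pig it was 5.63 times for MCM2 (4.18 to 7.60), 2.60 times for MCM3 and 2.32 times for MCM4. Only the cow MCM2 interval included no change among these 8 ratios. At the morula the ratios ran the other way in cow, where MCM2, MCM3 and MCM7 were at 0.491, 0.464 and 0.604 times their oocyte ratio to MCM6. Pig MCM4 was also low there, at 0.351 times (0.257 to 0.480), while pig MCM7 was at 1.89 times (1.45 to 2.47).

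**Figure D2:**
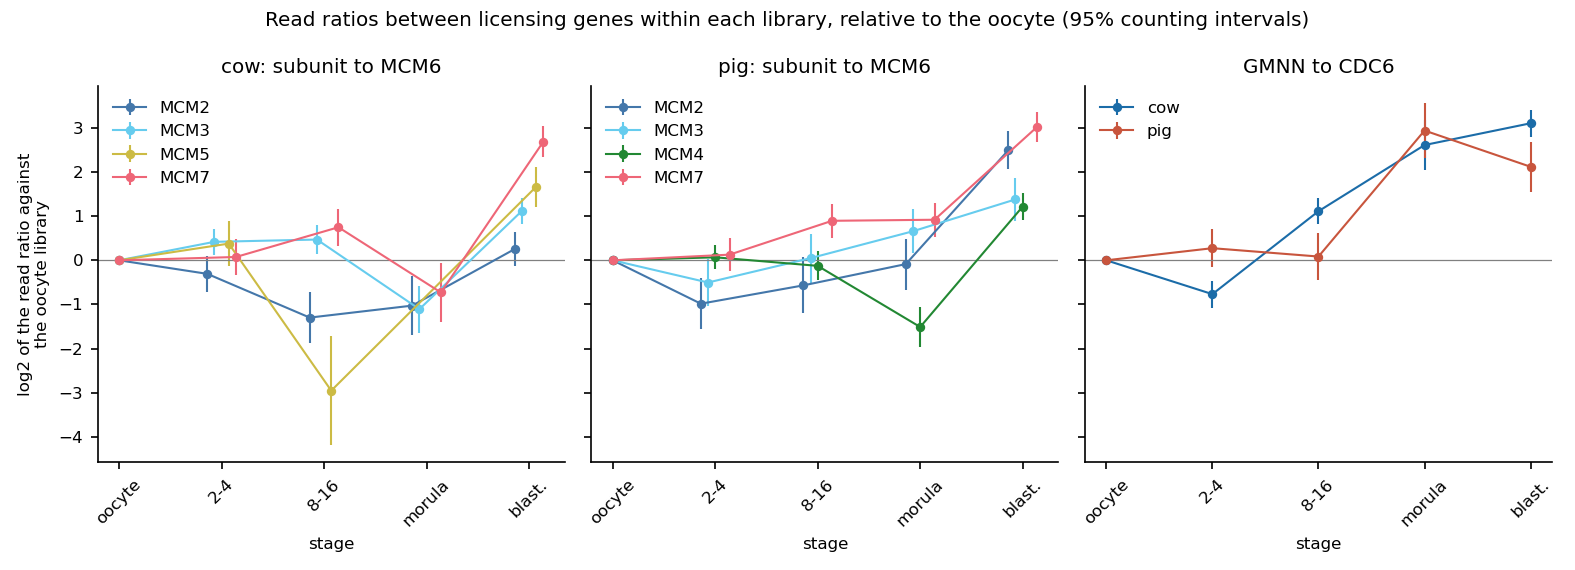
Log2 of the ratio of reads between 2 licensing genes in the same library, relative to the oocyte library of the species, by stage, with 95% counting intervals; left and centre, each ring subunit against MCM6 in cow and pig, and right, GMNN against CDC6. Cow MCM5 at the morula is left out because it rests on 1 read; the MCM7 lines end highest of the subunits in both species, and the GMNN to CDC6 ratio is above the oocyte value in the morula and blastocyst of both.

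CDC6 (cow chr19:41185975-41196948, plus strand; pig chr12:22097390-22116165, minus strand) is the loader ATPase that works with the origin recognition complex. Cow levels were 85.8 RPM in the oocyte, 139 in the 2-4 cell embryo, 61.5 in the 8-16 cell embryo, 9.49 in the morula and 13.4 in the blastocyst. Pig levels were 59.2, 44.2, 29.4, 10.7 and 12.6 RPM. In both species the morula and blastocyst libraries were low and overlapped within counting error, and the first 3 stages did not overlap them or each other. CDC6 fell from oocyte to blastocyst by 2.59 in cow, 6.40-fold (5.38 to 7.64), and by 2.15 in pig, 4.70-fold (3.41 to 6.60). The cow step from the 8-16 cell embryo to the morula was a fall of 2.57, 6.48-fold (4.61 to 9.36). The pig step between the same stages was -1.38, 2.76-fold lower (1.83 to 4.26), and below the threshold. The pig call from oocyte to blastocyst lay near the threshold and was lost with a pseudocount of 5 RPM, at -1.87.

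CDT1 (cow chr18:14053451-14057708, plus strand; pig chr6:893381-897627, minus strand) brings the MCM ring to the origin and had the fewest reads of the set over the 5 libraries of each species. In cow it had 2.43, 6.08, 2.39, 1.28 and 3.46 RPM, from 12, 27, 13, 5 and 49 reads. Every pair of neighbours in the order of these levels overlapped, although the 2-4 cell level was 2.50 times the oocyte level with an interval of 1.22 to 5.42. In pig it had 5 reads in the oocyte (1.48 RPM), 1 in the 8-16 cell embryo, 2 in the blastocyst and 0 in the 2-4 cell embryo and morula. A count of 0 allows up to 0.725 RPM in the pig 2-4 cell library and 0.999 RPM in the morula. The ratio of the pig oocyte to the 2-4 cell library, 5 reads against 0, had a lower limit of 1.12, and no order of the later pig stages was detectable at this depth.

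GMNN (cow chr23:32775581-32786297, minus strand; pig chr7:19585946-19595344, plus strand) encodes geminin, the inhibitor of CDT1. Cow levels were 56.6, 54.1, 87.6, 38.2 and 75.9 RPM. The 8-16 cell embryo was highest, with the blastocyst overlapping it within counting error, and the morula was lowest. Pig levels were 44.4, 40.1, 23.4, 61.3 and 41.0 RPM, lowest in the 8-16 cell embryo and highest in the morula. The order of the 8-16 cell embryo and the morula was therefore reversed between the species. From the 8-16 cell embryo to the morula, cow GMNN was 2.29 times lower (1.90 to 2.78) and pig GMNN 2.62 times higher (1.99 to 3.48), differences of -1.18 and 1.35 that did not reach the threshold. In pig, 7660 of the 9399 bases of GMNN are shared with a gene on the opposite strand that the table lists only as ENSSSCG00000001097. That gene had 51.2, 49.3, 36.6, 62.6 and 48.8 RPM, highest in the morula and lowest in the 8-16 cell embryo like pig GMNN. If strand was not used in counting, reads of this pair cannot be told apart, so the pig GMNN values are uncertain.

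Geminin and CDC6 moved apart within the libraries. Relative to the oocyte, the ratio of GMNN to CDC6 reads was 6.11 times in the cow morula (4.13 to 9.02) and 8.59 times in the cow blastocyst (6.92 to 10.7). In pig it was 7.67 times in the morula (4.98 to 11.8) and 4.34 times in the blastocyst (2.94 to 6.41), with the limit on pig GMNN given above. At the 2-4 cell stage the ratio was lower than in the oocyte in cow, at 0.588 times, and in pig its interval of 0.898 to 1.63 included no change. MCM7 against CDC6 showed a wider shift at the blastocyst, 18.6 times the oocyte ratio in cow (14.1 to 24.6) and 15.0 times in pig (10.2 to 21.9). At the morula it was 3.34 times in cow (1.92 to 5.80) and 7.17 times in pig (4.58 to 11.2). These morula values were below those of GMNN, with overlapping intervals.

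CDC45 (cow chr17:74731463-74747056, plus strand; pig chr14:51132781-51161972, plus strand) joins the loaded ring when an origin fires. Cow levels were 2.84, 4.73, 3.68, 4.10 and 3.60 RPM from 14, 21, 20, 16 and 51 reads, and all neighbours in order overlapped. Pig levels were 12.1, 5.56, 3.79, 10.3 and 13.1 RPM. The pig 8-16 cell library was lowest and the morula was 2.72 times higher (1.36 to 5.82). All 29192 bases of pig CDC45 lie within MED15, a Mediator subunit gene on the opposite strand, which had between 155 and 290 RPM. MED15 was lowest in the 2-4 cell library and highest in the blastocyst, and its part in the pig CDC45 counts was not tested.

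**Figure D3:**
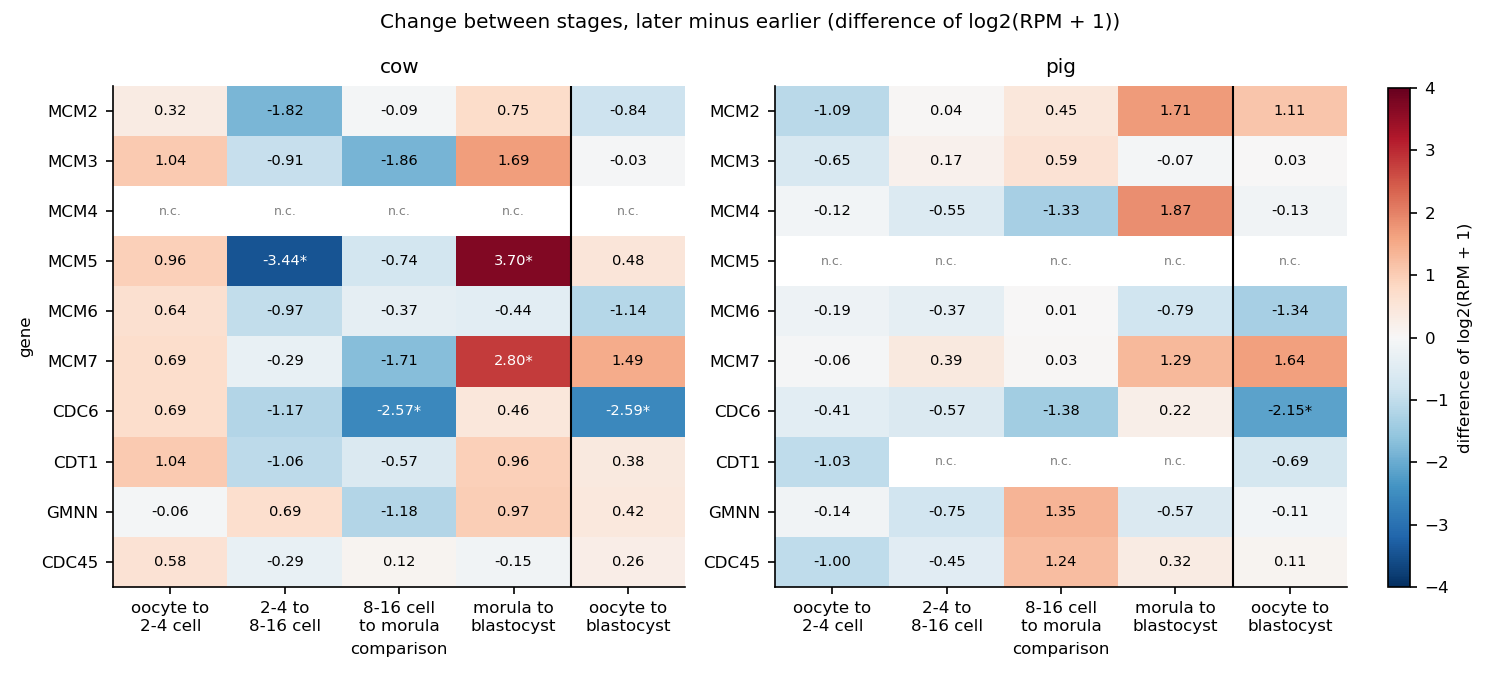
Change of each licensing gene between stages as the difference of log2(RPM + 1), later minus earlier, for cow (left) and pig (right); colour and number give the value, an asterisk marks a change of 2 or more in size, n.c. a gene not compared. The 6 marked values are cow MCM5 (-3.44 and 3.70), cow MCM7 (2.80), cow CDC6 (-2.57 and -2.59) and pig CDC6 (-2.15).

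The counts of licensing genes called were read against the share of all genes called in the same comparison. From oocyte to 2-4 cell embryo 0 of 9 members changed in cow, beside 0.374% of the 11226 genes compared, and 0 of 9 in pig, beside 5.43% of 11362. From the 2-4 cell to the 8-16 cell embryo 1 of 9 changed in cow (MCM5), beside 27.2% of all genes, and 0 of 8 in pig, beside 4.87%. From the 8-16 cell embryo to the morula it was 1 of 9 in cow (CDC6), beside 11.8%, and 0 of 8 in pig, beside 23.3%. From morula to blastocyst it was 2 of 9 in cow (MCM5 and MCM7), beside 23.4%, and 0 of 8 in pig, beside 27.6%. From oocyte to blastocyst 1 of 9 members changed in each species (CDC6), where 40.2% of all genes changed in cow and 45.2% in pig. Neighbouring comparisons share a library, and both species' oocyte to blastocyst comparisons share their libraries with the first and last steps. Pig CDT1 was not compared at the 3 steps after the 2-4 cell stage. The median change of the members from oocyte to blastocyst was 0.26 in cow beside 0.18 for all genes, and -0.11 in pig beside 0.43.

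Smaller differences were counted where the interval of the ratio left out no change, a rule chosen after the values were seen. From oocyte to 2-4 cell embryo, 6 cow members were higher and 0 lower, where 35.1% of all cow genes were higher and 13.3% lower. At the same step 6 pig members were lower and 0 higher, where 32.7% of all pig genes were lower and 21.7% higher. MCM3, MCM6, CDC6 and CDT1 were in both groups of 6, higher in cow and lower in pig. When libraries were scaled to a common median, pig MCM6 turned from -0.19 to 0.14. With that scaling pig CDC6 shrank from -0.41 to -0.09 and cow CDC6 from 0.69 to 0.38, with no turn of direction. The median change at this step was 0.69 for the members and 0.27 for all genes in cow, and -0.41 and -0.14 in pig. From the 2-4 cell to the 8-16 cell embryo 6 cow members were lower (all genes 47.3%) and GMNN was higher (32.5%). In pig 4 members were lower at that step (all genes 17.1%) and MCM7 was higher (31.9%). From the 8-16 cell embryo to the morula 5 cow members were lower (all genes 31.7%) and 0 higher (34.7%). In pig 3 were higher at that step, namely MCM3, GMNN and CDC45 (all genes 38.3%), and 2 were lower, MCM4 and CDC6 (all genes 31.8%). From morula to blastocyst 6 cow members were higher (all genes 38%) and MCM6 was lower (43.2%). In pig MCM2, MCM4 and MCM7 were higher (all genes 34.9%), and MCM6 and GMNN were lower (40.8%).

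From oocyte to blastocyst the members were split by the same rule. In cow MCM5, MCM7 and GMNN were higher (all genes 46.4%), and MCM2, MCM6 and CDC6 were lower (all genes 41.7%). In pig MCM2 and MCM7 were higher (all genes 46.4%), and MCM6 and CDC6 were lower (all genes 37.6%). MCM7 was thus higher in both species and MCM6 and CDC6 lower in both, while MCM2 differed in direction.

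The cow morula library, the low point of 7 members, had the most genes at 1 RPM or more of the cow libraries, 11216, and the median change of all genes into it was 0.07. From the 8-16 cell embryo to the morula, 31.7% of all cow genes were lower beyond counting error and 34.7% were higher. Of 9 genes of proliferating cells outside licensing, 7 were lower at that step by the same rule, among them TOP2A and CDK1, and RRM2 was higher. Their median change at that step was -0.71, beside -0.74 for the licensing genes. Their summed level was 2127 RPM in the cow 8-16 cell embryo, 1326 in the morula and 612 in the blastocyst. In pig the sum was 1602, 1423, 1144, 1478 and 495 RPM from oocyte to blastocyst. The genes in that sum were split, with 4 of 9 higher and 4 lower in the blastocyst than in the oocyte beyond counting error. Of all pig genes, 46.4% were higher and 37.6% lower. RRM2 went from 9.77 to 62.2 RPM, and TK1, which overlaps a gene on the opposite strand, from 0.296 to 39.9 RPM.

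Genes that act around the ring were followed from lists chosen by function, and their counts stand beside the 40.2% of all cow genes and 45.2% of all pig genes called from oocyte to blastocyst. In the origin recognition complex, which marks the sites where CDC6 loads the ring, 3 of 6 genes fell from oocyte to blastocyst in cow and 2 of 6 in pig, and none rose. Cow ORC5 went from 435 RPM in the oocyte to 41.3 in the morula and 4.94 in the blastocyst, and cow ORC3 from 209 to 37.7. Pig ORC6 fell from 68.1 to 10.2 RPM. Pig ORC4 was highest in the morula, at 246 RPM, beside 40.3 RPM in the oocyte and 69.7 in the blastocyst. The median change of the list was -1.50 in cow and -0.77 in pig.

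Among other MCM family and MCM-binding genes, 1 of 5 fell in cow and 1 of 4 in pig, and none rose. MCM9, which acts in recombination repair with MCM8, fell in cow from 610 to 57.9 RPM. MCM10, a firing factor, had 219 RPM in the cow oocyte, 321 in the 2-4 cell embryo and 103 in the blastocyst. Pig MCMDC2 fell from 16.9 to 1.34 RPM. Pig MCM8 went from 18.9 RPM in the oocyte to 53.6 in the morula and 10.7 in the blastocyst.

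Of the helicase activation genes (GINS subunits, the CDC7 kinase pair and firing factors), 2 of 11 rose and 3 fell from oocyte to blastocyst in cow, and 0 of 10 rose and 4 fell in pig. TICRR, which brings CDC45 to the ring, fell in cow from 171 to 18.3 RPM. WDHD1, a replisome scaffold, fell in pig from 734 to 62.2 RPM, and the kinase gene CDC7 fell in pig from 52.4 to 3.49 RPM. Cow GINS4 had 18.9 RPM in the oocyte, 51.6 in the 2-4 cell embryo, 1.28 in the morula and 4.16 in the blastocyst, the same highest and lowest stages as cow MCM2, MCM3 and MCM5.

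Genes that control the turnover of CDT1 and geminin moved in both directions, with 2 of 12 rising and 3 falling in cow and 2 of 10 rising and 3 falling in pig. FBXO5, which holds back the ubiquitin ligase that destroys geminin, fell in cow from 892 to 19.5 RPM. The cullin gene CUL1 rose in cow from 12.4 to 71.5 RPM. SKP2 and DTL, receptors of ligases that mark CDT1, fell in pig from 251 to 30.0 RPM and from 256 to 39.7 RPM.

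At the replication fork, 5 of 25 genes rose and 5 fell in cow, and 1 of 23 rose and 5 fell in pig. The ligase gene LIG1 fell in cow from 516 to 93.6 RPM with a morula level of 25.6. The clamp loader gene RFC2 rose in cow from 5.27 to 31.0 RPM. PCNA, the sliding clamp, fell in pig from 2962 to 199 RPM, and the polymerase subunit gene POLD3 from 149 to 12.9 RPM. In the E2F and RB family, which regulates transcription of many licensing genes, 1 of 12 rose and 1 fell in cow, and 2 of 12 rose and 1 fell in pig. RB1 fell in cow from 204 to 4.72 RPM, while TFDP2 rose from 22.7 to 102 RPM. Pig RBL2 fell from 646 to 133 RPM, with 48.6 RPM in the morula, and pig TFDP1 had 8.29 RPM in the oocyte and 2.68 in the blastocyst. Of the genes named from these lists, cow MCM9 and RB1 and pig ORC4, MCM8, SKP2, PCNA, RBL2 and TFDP1 overlap another gene on the opposite strand, so their values carry the same uncertainty of read assignment.

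**Figure D4:**
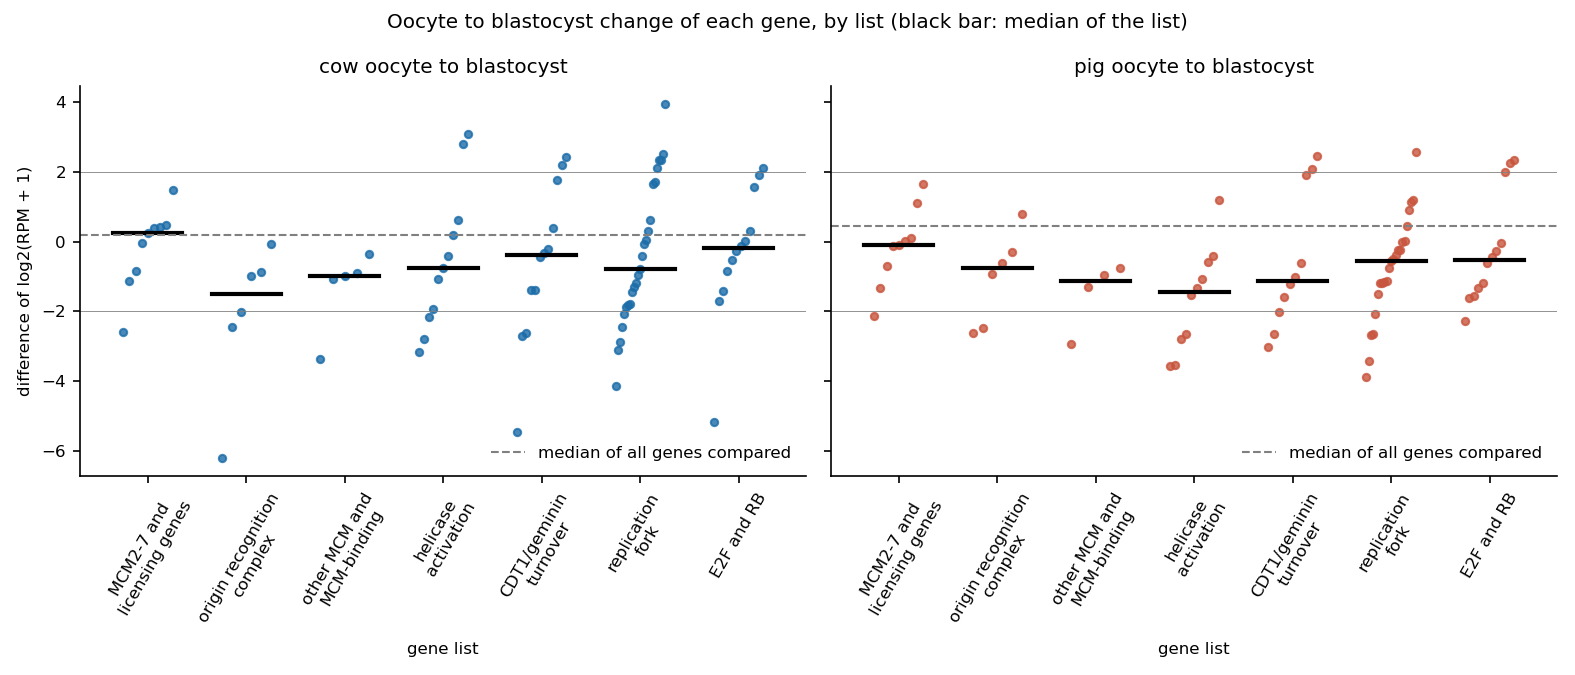
Change from oocyte to blastocyst (difference of log2(RPM + 1)) of each gene compared, by list, in cow (left) and pig (right); points are genes, black bars the median of a list, the dashed line the median of all genes compared, and thin lines the threshold of 2 in size. The licensing genes have medians of 0.26 in cow and -0.11 in pig, and the origin recognition complex has medians of -1.50 and -0.77.

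The genes most like the ring in pattern were taken from 6272 symbols shared by both tables, with a minimum level of 10 RPM. CDT1 in both species and CDC45 in cow stayed below that level and have no correlation here. Likeness was the lower of both species' Pearson correlations with the mean log2(RPM + 1) profile of the 5 measured subunits, over 5 libraries per species. Library totals differed, and all genes of 1 library share its depth and preparation. That profile was highest in the 2-4 cell library and lowest in the morula in cow (5.65 and 3.21). In pig it was highest in the blastocyst (5.97), and its 2-4 cell, 8-16 cell and morula values lay close together (5.28, 5.22 and 5.17). Of the pig subunits only MCM4, which is not in the cow profile, was lowest in the morula. The 5 closest symbols were FAM210B (0.972), DSCR3 (0.964), GYS1 (0.956), FURIN (0.953) and ADAM19 (0.947). With 5 points each, these are descriptions of rank among many genes. FAM210B, for example, had 29.4, 37.6, 8.10, 1.28 and 27.1 RPM in cow and 5.03, 1.45, 1.26, 1.67 and 11.3 RPM in pig. The subunits are part of the profile, and their own correlations with it ran from 0.56 (MCM6) to 0.95 (MCM5) in cow and from -0.46 (MCM6) to 0.93 (MCM2) in pig. Outside the ring, CDC6 had 0.69 in cow and -0.02 in pig, GMNN 0.34 and 0.09, and CDC45 0.70 in pig.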

How the data were processed

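RNA sequencing was analysed in 10 libraries, 1 per stage and species. Per the labels' protocols, RNA was isolated with the PicoPure kit and turned into amplified cDNA with the Ovation RNA-Seq System V2. The submitters' processing notes name Trim Galore 0.6.4, HISAT2 2.1.0 and the genome builds UMD3.1 and Sscrofa11.1, taken here as the cow and pig builds. The counting, the annotation and the handling of strand and duplicates are not given in the sources used here. The deposited values are log2 RPM. In each column the second lowest value is worth 1 read, at least 99.97% of values were whole reads within 0.02 read, and 0 reads had been written by the authors as 0.9 of a read. Read counts were recovered from this step. Changes use the deposited values, and levels print 0 reads as 0.

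Levels carry 95% Wilson intervals and ratios between libraries exact Clopper-Pearson intervals. Intervals on ratios of 2 genes relative to the oocyte use a normal approximation on the log scale. All were computed in Python 3.11.15 with scipy 1.17.1, and the scripts were tested on simulated data. The members, gene lists and rules were chosen with earlier results of these data known. All 10 members are named. From each further list, the 2 genes per species with the widest range over the stages among those at 5 RPM or more in a library are named, beside genes that overlap a member. A level per coding length was planned for the ring subunits and was not computed here. Alternatives changed the pseudocount, the minimum level, the threshold, the scaling, repeated symbols, the call rule and the value of 0 reads.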

Additional observations from a re-analysis of the deposited data

Results flagged for a closer look

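The changes of the 8 members found in both tables were compared between cow and pig in up to 5 comparisons, 37 pairs in all, since pig CDT1 was not compared at 3 steps. In 9 pairs the single library of each species moved beyond counting error in opposite directions. The share of all shared genes that did so was not computed, so the 9 cannot be set against a background. By the same counting rule 48.4% to 88.1% of all cow genes were called in a single comparison. In pig the rule called 49.0% to 84.1%. With 1 library per group the difference between species was not tested, and the tables were scaled separately.

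At the first step, oocyte to 2-4 cell embryo, the cow change exceeded the pig change by 1.70 for MCM3, by 0.83 for MCM6, by 1.11 for CDC6 and by 2.07 for CDT1, on the log2(RPM + 1) scale. The CDT1 value rests on 12 and 27 reads in cow and on 5 and 0 reads in pig. The MCM6 value rests on a pig change that turns positive with median scaling. The CDC6 value also depends on scaling, since with median scaling its changes were 0.38 in cow and -0.09 in pig.

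GMNN, the geminin gene, differed at 3 steps in a row: cow minus pig was 1.44 from the 2-4 cell to the 8-16 cell embryo, -2.53 from the 8-16 cell embryo to the morula and 1.54 from morula to blastocyst. Neighbouring steps share a library, so these values are not independent. The pig gene lies largely under an unnamed gene on the opposite strand with a like profile, and its part in these values was not tested.

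MCM3 differed again from the 8-16 cell embryo to the morula, at -2.44, with a cow change of -1.86 and a pig change of 0.59. MCM2 differed from oocyte to blastocyst, at -1.95, with -0.84 in cow and 1.11 in pig.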

How the results depend on the processing

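No change of a member that reached the threshold turned direction under any alternative. The counts of members called were the same with a pseudocount of 0.5 RPM, with no minimum level, with a minimum of 5 RPM, on non-mitochondrial gene reads, with quantile normalisation, with repeated symbols summed and with 0 reads as 0 RPM. A pseudocount of 5 RPM left 1 call in cow from morula to blastocyst (MCM5 dropped to 1.95) and 0 in pig from oocyte to blastocyst. Median scaling added 1 call in pig from morula to blastocyst, MCM4. In the order of the comparisons, a threshold of 1 gave 2, 4, 4, 3 and 3 calls in cow, where it called 12.0%, 62.9%, 42.0%, 56.9% and 70.4% of all genes. In pig it gave 3, 0, 4, 3 and 4 calls, beside 27.3%, 25.4%, 56.4%, 59.8% and 72.5%. Calling every ratio whose interval left out no change, a rule added after the values were seen, gave 6, 7, 5, 7 and 6 calls in cow and 6, 5, 5, 5 and 4 in pig. It called 48.4%, 79.8%, 66.4%, 81.2% and 88.1% of all cow genes and 54.4%, 49.0%, 70.0%, 75.7% and 84.1% of all pig genes. Beyond these settings' own construction, causes were not tested.

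Scaling turned the sign of 8 of 87 member changes on non-mitochondrial reads, 11 of 87 with median scaling and 12 of 86 with quantile normalisation. None was larger than 0.38 in size before the rescaling. The largest after it was -0.40, for pig CDC45 from oocyte to blastocyst with quantile normalisation. Among these scalings the median of all genes moved by up to 0.42 (cow oocyte to blastocyst, non-mitochondrial reads) and -0.41 (pig oocyte to blastocyst, quantile normalisation). Depth limits CDT1 in both species, CDC45 in cow and MCM5 in the cow 8-16 cell and morula libraries. Leaving out a replicate was not possible with 1 library per group. No paired analysis was possible because each group has 1 library and the labels give no replicate numbers. The level of each ring subunit per coding length, and its alternative by gene span, were not run, since no protein lengths were used here.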
